A study of Mus musculus with 40 samples.

Results

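The genes described here are the 2 Lin28 genes and 5 genes known as targets of the let-7 microRNAs: Lin28a, Lin28b, Trim71, Hmga2, Igf2bp1, Igf2bp2 and Igf2bp3. They were taken by their symbols from a table of 26906 genes, where each symbol names 1 row. All 7 passed the filter on low counts that left 16878 genes for testing. The samples were mouse embryonic stem cells of the CGR8 line (strain 129, no engineered allele named) that had been brought together as aggregates. Both arms grew in N2B27, a medium without serum, to which Activin-A, Fgf2 and knockout serum replacement (given as KSR) were added. The untreated arm had no XAV939, and its titles add that there was no matrigel. The XAV939 arm received from 0 to 72 h this inhibitor of tankyrase, the enzyme that marks Axin for decay, so that β-catenin is destroyed and canonical Wnt signals are dampened. The treatment had therefore ended by the time days 4 to 7 were sampled. Matrigel is not mentioned in the titles of the XAV939 libraries, so a difference in matrigel and the effect of XAV939 cannot be told apart. Each arm was sampled at days 3, 4, 5, 6 and 7 with 4 libraries a day, which makes 40 libraries of polyadenylated RNA in all.

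Lin28 proteins bind the terminal loop of let-7 precursors, where a GGAG motif is a known contact, and block their maturation. They recruit the terminal uridylyltransferases Tut4 and Tut7, and the exonuclease Dis3l2 then degrades the uridylated precursor. Mature let-7 in turn represses Lin28a, Lin28b, Trim71, Hmga2 and the Igf2bp genes through sites in their 3′ UTRs. The loop is best known as a timing switch: Lin28 is high in pluripotent and early embryonic cells, and let-7 accumulates as cells differentiate. Polyadenylated RNA libraries do not measure mature let-7, so only the messenger RNAs on both sides of the loop and the long RNAs that carry let-7 precursors could be followed.

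The let-7 sequences are shown first because a shared seed (bases 2 to 8, in capitals) defines the family. In the RefSeq table (GRCm38.p6), mature 5p entries with the seed GAGGUAG are listed for 12 precursors under 10 names, and the let-7j entry has GAGGUAU. The hairpin of let-7a-2, printed further on, holds the letters of let-7a-5p too. Of the mature forms, 4 are as follows, each with the locus of 1 of its precursors.
let-7a-5p, chr13:48538239-48538260, minus strand: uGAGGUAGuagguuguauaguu
let-7c-5p, chr16:77599672-77599693, plus strand: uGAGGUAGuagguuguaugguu
let-7g-5p, chr9:106178846-106178867, plus strand: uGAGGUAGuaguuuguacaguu
miR-98-5p, chrX:151913229-151913250, plus strand: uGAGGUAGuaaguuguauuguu

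The target side was read from the longest annotated 3′ UTR of each gene (GENCODE M21, mm10/GRCm38), on the sense strand only. The 8-mer searched was CTACCTCA, the complement of the seed followed by an A. The 7-letter forms CTACCTC and TACCTCA were counted apart where they were not part of an 8-mer. All 7 genes held at least 1 8-mer, against 556 of 15144 tested genes with an annotated 3′ UTR (3.67%). Since the genes are known as let-7 targets, this is a description of the list. The first 8-mer of each gene is printed in capitals with the 14 bases before it.
Lin28a, chr4:134005189-134005210, minus strand: cacagcctgttgaaCTACCTCA
Lin28b, chr10:45381022-45381043, minus strand: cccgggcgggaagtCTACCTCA
Trim71, chr9:114512472-114512493, minus strand: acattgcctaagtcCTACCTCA
Hmga2, chr10:120364224-120364245, minus strand: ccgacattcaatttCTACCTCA
Igf2bp1, chr11:95961778-95961799, minus strand: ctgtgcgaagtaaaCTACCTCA
Igf2bp2, chr16:22059473-22059494, minus strand: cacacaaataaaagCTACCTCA
Igf2bp3, chr6:49086787-49086808, minus strand: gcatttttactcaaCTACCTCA

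The genes differed in how many such matches they held. Trim71 had 4 8-mers in a 3′ UTR of 5512 bases. Of the 680 genes whose 3′ UTR was within 20% of that length, 0.147% reached this number, which is Trim71 alone. Igf2bp1 had 3 in 6337 bases (0.62% of 484 genes of like length had as many) and Lin28a had 2 in 2775 bases (0.401% of 1993 genes). Lin28b, Hmga2, Igf2bp2 and Igf2bp3 had 1 each, and 8.9%, 5.94%, 4.01% and 4.63% of genes of like length had as many or more. Each of these shares counts the gene itself, and that of Igf2bp1 counts Trim71 as well. Hmga2 held the most matches of any kind, 7, because 3 of each 7-letter form joined its single 8-mer. Lin28b held 5 in all, with 3 of the form CTACCTC.

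The other end of the loop is the precursor. Of 12 let-7 family hairpins in which both arms could be placed (the 5p arm by the letters of a listed mature form), 9 had GGAG in the loop between the arms, and those of let-7b, let-7c-2 and miR-98 did not. The hairpins of let-7a-2 and let-7c-1 are shown, with GGAG in capitals, because the long RNAs that span them changed most among the host genes described below.
let-7a-2, chr9:41536716-41536811, plus strand: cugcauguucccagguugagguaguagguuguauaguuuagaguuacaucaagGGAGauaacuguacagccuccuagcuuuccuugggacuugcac
let-7c-1, chr16:77599657-77599750, plus strand: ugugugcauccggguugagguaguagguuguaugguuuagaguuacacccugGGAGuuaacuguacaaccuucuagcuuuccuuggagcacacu

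All 7 genes are protein-coding and lie on the minus strand: Lin28a (ENSMUSG00000050966) at chr4:134003330-134018841, Lin28b (ENSMUSG00000063804) at chr10:45376620-45486395 and Trim71 (ENSMUSG00000079259) at chr9:114507133-114564369. Hmga2 (ENSMUSG00000056758) lies at chr10:120361275-120476469. The Igf2bp genes lie at chr11:95957163-96005940 (Igf2bp1, ENSMUSG00000013415), chr16:22059009-22163299 (Igf2bp2, ENSMUSG00000033581) and chr6:49085223-49214957 (Igf2bp3, ENSMUSG00000029814). Exons of Igf2bp3 share 1529 bases with Malsu1 on the opposite strand, and other such overlaps were at most 234 bases. Whether strand was used in the counting is not given in the sources used here, so reads in these stretches cannot be assigned. Malsu1 itself was low and fell from 20.5 ± 1.56 to 13.6 ± 0.672 CPM between days 3 and 7 in the untreated arm, a log2 fold change of -0.59 (edgeR adjusted p = 0.00129), while Igf2bp3 rose.

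Library totals ran from 30197759 to 44086019 counts. Untreated day 6 library 3 and untreated day 4 library 1 stood apart from the others of their groups (correlations of 0.9649 and 0.9742 with them). Among the 4 untreated day 6 libraries, library 3 had the highest Lin28a and the lowest Lin28b, Trim71, Hmga2, Igf2bp1, Igf2bp2 and Igf2bp3. Day 3 aggregates carried epiblast RNA, with Pou5f1 at 788 and Fgf5 at 101 CPM in the untreated arm, and Pou5f1 was at 4.25 CPM by day 7. Levels here are CPM (the counts-per-million unit, with library totals scaled by trimmed means of M values), as mean ± SD of 4 libraries. Differences are log2 fold changes with their standard error (SE) from edgeR's quasi-likelihood test, and a gene was called where the p adjusted by Benjamini and Hochberg over all genes tested was below 0.05. The labels do not say whether the 4 libraries of a group came from separate cultures, so p-values measure the spread between these libraries, which may be technical.

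From day 3 to day 7, Lin28b, Hmga2, Igf2bp2 and Igf2bp3 rose and Lin28a and Trim71 fell, in both arms. Igf2bp1 did not pass the test in either arm. Thus 4 of 7 genes were called higher and 2 lower in each arm. Over all genes tested, 34.7% were called higher and 32.6% lower in the untreated arm, and 36.8% and 34.1% in the XAV939 arm. In each arm the day 3 and day 7 libraries of those 6 genes did not overlap, as for 65.9% of all genes in the untreated arm and 64.1% in the XAV939 arm. With most of the transcriptome changing, a count of 6 of 7 is near that background, and what the list shows is the size, order and direction of the separate changes. The RNA is from whole aggregates, so fewer cells of a type and less RNA per cell cannot be told apart.

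**Figure D1:**
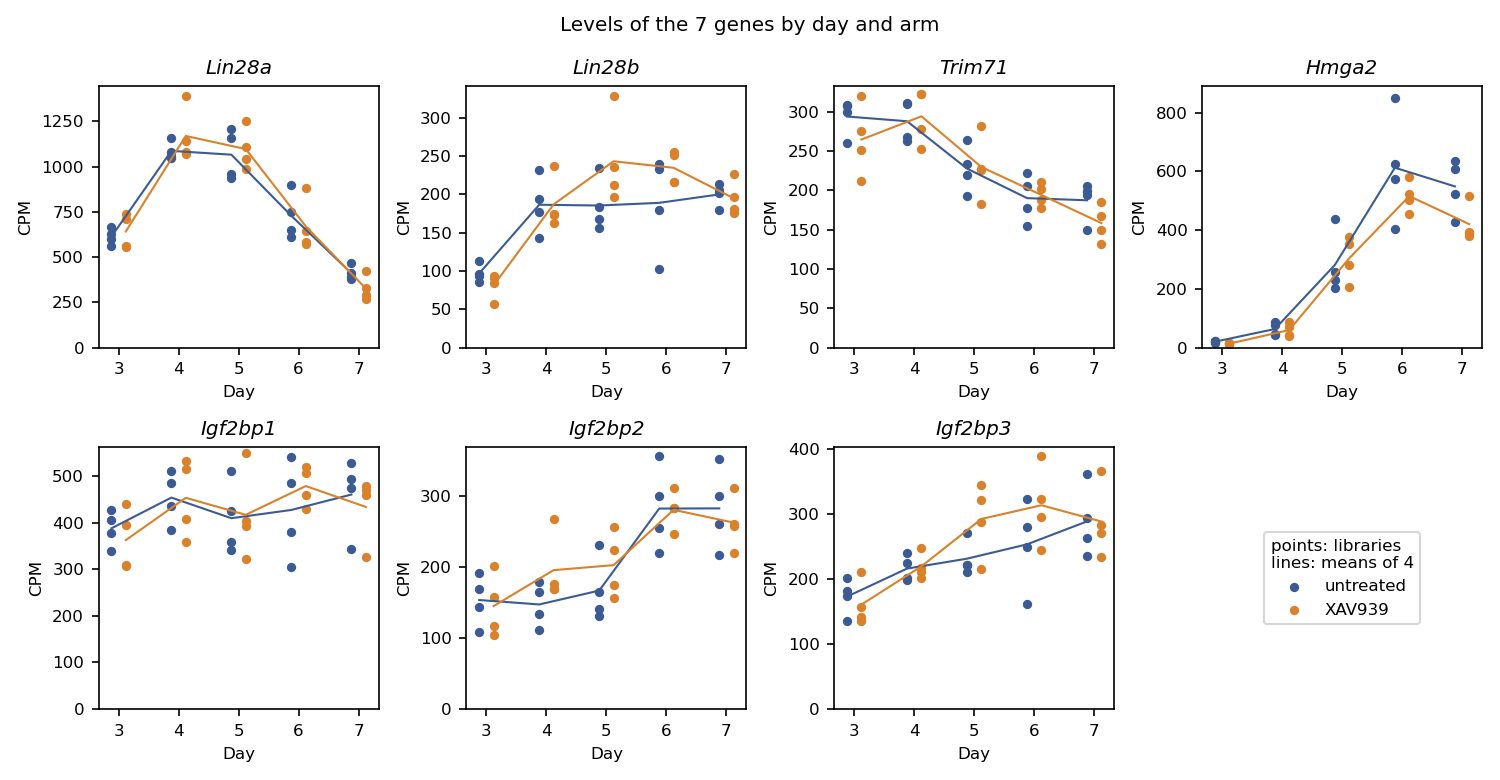
CPM (y axis, from 0) of each of the 7 genes at days 3 to 7 (x axis), with 1 point per library and lines through the means of 4, untreated in blue and XAV939 in orange. Lin28a peaks at days 4 and 5, Trim71 declines, Hmga2 goes from about the bottom of its axis to 613 CPM, and Igf2bp1 stays between 305 and 549 CPM. The arms overlap for each of the 7 genes at every day. Of all genes tested, 1.29% (day 3) to 7.46% (day 5) did not overlap.

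Lin28a, the Lin28 paralog typical of pluripotent cells, rose and then fell. The untreated libraries held 628, 559, 600 and 666 CPM at day 3. At day 4 they held 1080, 1060, 1050 and 1160 CPM, and at day 7 they were down to 377, 410, 468 and 389 CPM. Every day 4 library was thus above every day 3 library, and every day 7 library below both. The rise to day 4 had a log2 fold change of 0.83 (SE 0.144, edgeR adjusted p = 2.86e-05). The later falls were -0.55 from day 5 to day 6 (adjusted p = 0.00496) and -0.83 from day 6 to day 7 (adjusted p = 0.000236), and day 7 against day 3 gave -0.58 (SE 0.143, adjusted p = 0.000634). The fall from day 5 to day 6 was no longer called when only these 8 libraries were fitted (adjusted p = 0.0781).

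The XAV939 arm followed the same course for Lin28a. Its libraries held 713, 561, 737 and 556 CPM at day 3, then 1390, 1080, 1070 and 1140 at day 4, and 327, 288, 426 and 266 at day 7. The groups again did not overlap between these days. The rise to day 4 was 0.87 (edgeR adjusted p = 1.21e-05), the fall from day 6 to day 7 was -1.04 (adjusted p = 1.7e-05) and day 7 against day 3 was -0.97 (SE 0.144, adjusted p = 3.16e-07).

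Lin28b, the second Lin28 gene, rose once and its mean stayed up. Its untreated libraries held 95.7, 93.4, 85.5 and 113 CPM at day 3 and 143, 177, 194 and 232 at day 4. At day 6 they ran from 103 to 240 CPM, and the lowest, library 3, which stood apart, was back within the day 3 range. At day 7 they were at 206, 179, 213 and 202 CPM. The lowest day 4 library was above the highest day 3 library, and no later step was called. The rise to day 4 was 0.945 (SE 0.193, edgeR adjusted p = 0.000237), and day 7 against day 3 was 1.05 (SE 0.194, adjusted p = 1.48e-05). In the XAV939 arm Lin28b went from 81.3 ± 16.6 to 187 ± 33.6 CPM at day 4 (log2 fold change 1.201, adjusted p = 8.15e-06), was highest at day 5 (243 ± 58.6 CPM) and ended at 195 ± 22.3 CPM. With Lin28a falling after day 5, Lin28b reached 49 ± 5.17% of the Lin28a CPM at day 7 untreated, from 15.8 ± 1.27% at day 3, and 60.9 ± 9.23% from 13.1 ± 3.9% with XAV939. These percentages are of CPM and are not corrected for the genes' lengths, so only their change over time can be read.

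Trim71 (also Lin41), a TRIM-NHL ubiquitin ligase and RNA-binding repressor, declined. The untreated libraries held 308, 300, 260 and 307 CPM at day 3 and 194, 150, 206 and 199 at day 7, so the highest day 7 library was below the lowest of day 3. The change was -0.65 (SE 0.137, edgeR adjusted p = 9.01e-05). The XAV939 libraries went from 320, 251, 275 and 212 to 167, 132, 185 and 149 CPM, again without overlap (-0.74, adjusted p = 1.32e-05). The decline was spread over the days: the one called step was day 5 against day 4 with XAV939 (-0.36, adjusted p = 0.0437, groups overlapping), which was lost without XAV939 day 4 library 1, 2 or 3 or day 5 library 2, 3 or 4 (adjusted p from 0.0588 to 0.193). The same step without XAV939 was -0.34 (adjusted p = 0.0781), and -0.38 (adjusted p = 0.0386) without the 2 libraries that stood apart.

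Hmga2, an AT-hook chromatin protein and a classical let-7 target, had the largest change of the 7. Untreated libraries held 21.2, 23.6, 14.7 and 20.4 CPM at day 3 and 85.6, 45.5, 43.8 and 78.2 at day 4. They held 438, 203, 256 and 229 CPM at day 5, 849, 573, 404 and 625 at day 6, and 637, 429, 607 and 523 at day 7. Each day up to day 5 lay wholly above the day before. The steps were 1.67 (edgeR adjusted p = 8.42e-06), 2.15 (6.23e-07) and 1.12 (0.00175, with day 5 and day 6 overlapping), and day 7 against day 6 was not called (-0.16, adjusted p = 0.714). Day 7 against day 3 was 4.78 (SE 0.302, adjusted p = 2.48e-15), above 96.1% of all genes tested in that comparison.

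With XAV939, Hmga2 went from 14.6, 15.2, 9.19 and 14.3 CPM at day 3 to 456, 504, 582 and 522 at day 6 and 381, 389, 518 and 394 at day 7. The steps to days 4 and 5 were 2.17 (edgeR adjusted p = 1.13e-07) and 2.34 (7.29e-08), and day 7 against day 3 was 4.98 (SE 0.306, adjusted p = 1.16e-15). The step from day 5 to day 6 was smaller (0.76, adjusted p = 0.0367). It was not called without XAV939 day 5 library 1 or 3 or day 6 library 2, 3 or 4 (adjusted p from 0.0622 to 0.16) or without the filter on low counts (0.0514).

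The Igf2bp genes encode KH-domain proteins that bind and stabilise messenger RNAs such as those of Igf2 and Myc. Igf2bp1 stayed level: untreated libraries held 428, 377, 340 and 406 CPM at day 3 and 494, 344, 474 and 529 at day 7, which overlap. Its change was 0.25 (95% confidence interval -0.11 to 0.60, edgeR adjusted p = 0.212), and with XAV939 0.26 (-0.10 to 0.62, adjusted p = 0.185). Its highest and lowest daily means differed 1.19-fold in the untreated arm and 1.32-fold in the XAV939 arm.

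Igf2bp2 rose late. Untreated libraries held 191, 169, 109 and 144 CPM at day 3, 230, 140, 165 and 131 at day 5, and 355, 254, 219 and 299 at day 6. By day 7 they held 351, 217, 260 and 300 CPM, all above day 3. The step from day 5 to day 6 was 0.76 (edgeR adjusted p = 0.00948) although those days overlapped, and it was not called without untreated day 5 library 4 (adjusted p = 0.0512) or without untreated day 6 library 1 (0.0509). Day 7 against day 3 was 0.88 (SE 0.214, adjusted p = 0.000494), and 0.86 (adjusted p = 0.00062) with XAV939, where the level went from 145 ± 43.9 to 262 ± 37.6 CPM. In between, the XAV939 means were 195 ± 48.2 CPM at day 4, 202 ± 45.8 at day 5 and 280 ± 26.3 at day 6. No single step was called there in the fit without a block (to day 4 0.43, edgeR adjusted p = 0.109, and from day 5 to 6 0.47, 0.135).

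Igf2bp3 rose gradually. Untreated libraries held 202, 181, 135 and 173 CPM at day 3 and 361, 235, 263 and 294 at day 7, without overlap, and no single step was called in the fit without a block. The change was 0.74 (SE 0.18, edgeR adjusted p = 0.000526). XAV939 libraries went from 210, 156, 135 and 141 to 366, 234, 282 and 270 CPM (0.85, adjusted p = 9.4e-05). The one step called in that fit, day 4 against day 3 with XAV939 (0.45, adjusted p = 0.0438, groups overlapping), was lost without XAV939 day 3 library 2, 3 or 4 or day 4 library 1, 3 or 4 (adjusted p from 0.0572 to 0.159), with the other size factors (0.0623) and with DESeq2 (0.0586). Its next step with XAV939, day 5 against day 4, was not called with all libraries (adjusted p = 0.0749) but passed without XAV939 day 5 library 3 (0.54, adjusted p = 0.0278). It also passed without the 2 libraries that stood apart (adjusted p = 0.0409). Those 2 are untreated and outside this step, whose log2 fold change was 0.415 with and without them.

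Counted by step, the untreated arm had 3 of 7 genes called from day 3 to day 4 (32.7% of all genes), 1 from day 4 to 5 (18.7%), 3 from day 5 to 6 (19.8%) and 1 from day 6 to 7 (12.2%). The XAV939 arm had 4 (38%), 2 (31%), 2 (17%) and 1 (7.16%). Lin28a and Hmga2 gave most of these calls: Lin28a at every step except day 4 to 5, and Hmga2 at every step except day 6 to 7, in both arms.

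Per kilobase of annotated exon, a scale on which genes can be compared, Lin28a had the highest mean in all 10 groups. It stood at 153 ± 11.3 CPM per kb at day 3 and 103 ± 10.1 at day 7 without XAV939, and at 161 ± 24.2 and 81.7 ± 17.7 with it. Hmga2 moved from last to the second place: 2.95 ± 0.559 CPM per kb at day 3 and 81 ± 13.8 at day 7 untreated, against 1.97 ± 0.41 and 62.1 ± 9.64 with XAV939. Trim71 went from the third place (31.5 ± 2.46) to the last (20.1 ± 2.68 CPM per kb) in the untreated arm. At day 7 untreated, neighbours in the order did not overlap between Lin28a and Hmga2, Hmga2 and Igf2bp1, or Igf2bp3 and Lin28b. Igf2bp1, Igf2bp2 and Igf2bp3 overlapped in turn, as did Lin28b and Trim71, and with XAV939 Lin28a and Hmga2 overlapped too. The top of the order depends on the length used: per kilobase of the longest transcript Hmga2 was above Lin28a at day 7, at 144 ± 24.5 against 117 ± 11.5 untreated and 110 ± 17.1 against 93.2 ± 20.1 with XAV939.

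**Figure D2:**
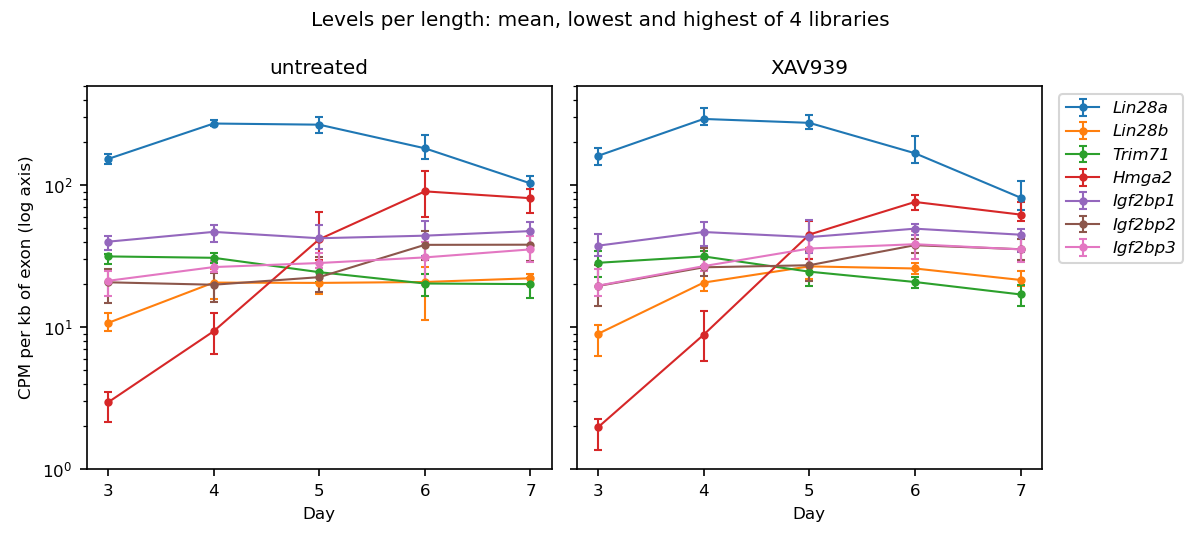
CPM per kb of annotated exon (y axis, log scale) by day (x axis) for the 7 genes, untreated on the left and XAV939 on the right, as means of 4 libraries with bars from the lowest to the highest. Hmga2 climbs from the lowest line at day 3 (2.95 untreated, 1.97 with XAV939) to the second highest at days 6 and 7, below Lin28a.

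XAV939 against untreated was the comparison of the series' design, and it called 0 of the 7 genes at every day with edgeR. The shares of all genes called were 0.00592% at day 3, 0.0178% at day 4, 2.34% at day 5, 4.34% at day 6 and 0.00592% at day 7, so 0 of 7 is near the background at each of them. At an unadjusted p below 0.05 there was 1 gene at day 3 (Hmga2), 1 at day 5 (Lin28b), 1 at day 7 (Lin28a) and 0 at days 4 and 6, and DESeq2 called 0 at every day. The test of any XAV939 effect over the 5 days called 0 of 7 (5.8% of all genes), and the test of a difference of the effect between days 0 of 7 (0.231%). Both had 0 of the 7 at an unadjusted p below 0.05 and 0 by DESeq2. The change of the effect from day 3 to day 7 was called for 0 of all 16878 genes (718 at an unadjusted p below 0.05, 1 called by DESeq2). The libraries of the arms overlapped for every one of the 7 genes at every day. Over all genes tested, 1.29%, 2.03%, 7.46%, 5.92% and 4.9% did not overlap at days 3, 4, 5, 6 and 7. Overlap of all 7 is therefore near that background.

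The intervals, all from the fit without a replicate block, show what that fit leaves room for. That fit ignores the pairing of same-numbered libraries described below, and intervals with the block are not given here. Hmga2 at day 3 stood at 13.3 ± 2.78 CPM with XAV939 and 19.9 ± 3.78 without (log2 fold change -0.58, 95% confidence interval -1.12 to -0.04, edgeR adjusted p = 1), and it was lower with XAV939 in 4 of 4 pairs of libraries of the same number. Of the 35 combinations of gene and day, 6 were lower and 2 higher with XAV939 in all 4 pairs. The share of all genes whose 4 pairs go one way was not computed, so these pair counts are a description without a background. Lin28b at day 5 stood at 243 ± 58.6 and 186 ± 34.9 CPM (0.39, 0 to 0.78, adjusted p = 0.399), higher in 4 of 4 pairs. Lin28a at day 7 stood at 327 ± 70.6 and 411 ± 40.4 CPM (-0.33, -0.62 to -0.04, adjusted p = 0.487), lower in 4 of 4 pairs. Trim71 at day 7 was also lower in 4 of 4 pairs, with 158 ± 22.5 against 187 ± 25 CPM. So were Lin28b at day 3, the other way from its day 5, Lin28a at day 6 and Hmga2 at day 7. The remaining one higher in 4 of 4 pairs was Igf2bp3 at day 6. None of these passed the adjusted threshold in this fit.

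Same-numbered libraries of a day varied together, so a fit with a replicate block within each day was compared. It called 1 of 7 genes at day 6, Igf2bp3 (10.2% of all genes were called in that fit). Of all 16878 genes it called 1240 at day 5 and 381 at day 7, the background for other counts with this block. Igf2bp3 stood at 389, 295, 245 and 323 CPM with XAV939 and 322, 249, 161 and 280 without, higher in 4 of 4 pairs but overlapping between arms. Its difference was 0.31 (adjusted p = 0.428) without the block and 0.33 (edgeR adjusted p = 0.0408) with it. Untreated library 3, at 161 CPM, is one of the libraries that stood apart. Without those 2 libraries the values were 0.14 (adjusted p = 0.944) with no block and 0.24 (adjusted p = 0.135) with it. That last fit, chosen after the data were seen, called instead Lin28b (0.38, adjusted p = 0.00422) and Igf2bp3 (0.33, adjusted p = 0.0149) at day 5, where 13.7% of all genes were called. At day 7 it called Lin28a (-0.35, adjusted p = 0.0184) with 5.54% of all genes. With the block and all libraries, Lin28a at day 7 had an adjusted p of 0.0519. In the same fit Lin28b at day 5 was 0.378 (edgeR adjusted p = 0.136) and Igf2bp3 0.325 (0.0581), so these estimates hardly moved. Those 2 libraries are untreated ones of days 4 and 6. At days 5 and 7 they enter only through what all groups share, such as the estimate of the spread. So whether Lin28a, Lin28b and Igf2bp3 are called between the arms depends on the pairing and on those libraries.

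**Figure D3:**
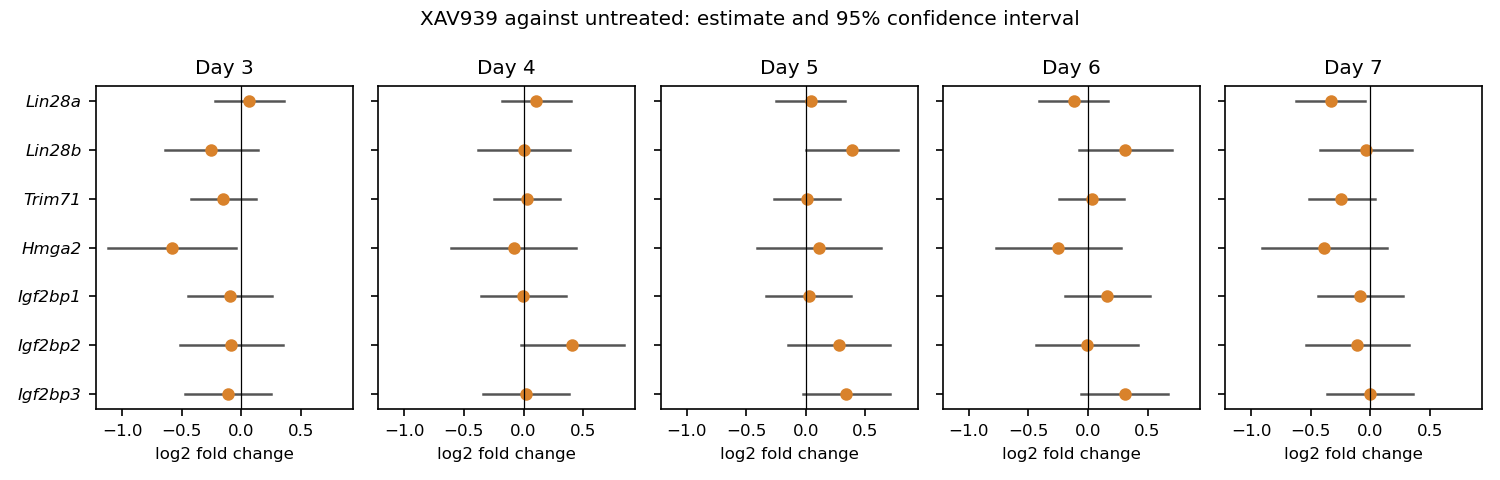
log2 fold change of XAV939 against untreated (x axis) for the 7 genes at each day, as the estimate (orange point) with its 95% confidence interval (line) from the fit with no block. No gene was called at any day; the estimates lie between -0.58 (Hmga2, day 3) and 0.41 (Igf2bp2, day 4).

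The let-7 precursors were approached through the longer RNAs that span them. Mir100hg, a long noncoding RNA (ENSMUSG00000074415, called 3110039I08Rik in GENCODE M21) at chr9:41327077-41716994 around let-7a-2, rose in both arms. Untreated it went from 0.211 ± 0.122 CPM at day 3 to 12.4 ± 3.14 at day 7 (log2 fold change 5.85, SE 0.722, edgeR adjusted p = 1e-08). With XAV939 it went from 0.183 ± 0.177 to 26.8 ± 6.18 CPM (7.13, adjusted p = 3.79e-10). At day 6 it was higher with XAV939, at 2.84 to 19.6 CPM against 0.42 to 4.16 CPM (2.23, SE 0.568, adjusted p = 0.0161). That call was lost without untreated library 1 (adjusted p = 0.0563) or 3 (0.0665) or XAV939 library 1 (0.0519) or 4 (0.1), and when only the libraries of day 6 were fitted (0.223). Without the 2 libraries that stood apart it was 1.89 (adjusted p = 0.0555). With the replicate block it was called higher at days 5 (1.79, adjusted p = 0.00316), 6 (2.31, 8.35e-05) and 7 (1.12, 0.0384).

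Mir99ahg, the long noncoding RNA around let-7c-1, was close to absent at first: 1 count over the untreated day 3 libraries and 0 over the XAV939 day 3 libraries. At day 7 there were 180 and 260 counts, or 1.1 ± 0.567 and 1.78 ± 0.685 CPM. The untreated ratio was 167-fold, with an exact 95% interval of 29.7 to 6650, and with XAV939 Mir99ahg was at least 77-fold higher at day 7, taking a floor of 3 counts over the group. These limits cover counting error only. Its day 7 against day 3 test was called in both arms (edgeR adjusted p = 1.02e-06 and 1.09e-07), and no difference between arms was. Not called in day 7 against day 3 were the other tested host genes, Huwe1 (around miR-98 and let-7f-2), Wdr82 (let-7g), Spaca6 (let-7e) and 6720427I07Rik (let-7a-1, let-7d and let-7f-1). Among the steps between neighbouring days, Spaca6 was lower at day 6 than at day 5 (-1.32, edgeR adjusted p = 0.00978) and Wdr82 at day 5 than at day 4 (-0.32, adjusted p = 0.0107), both untreated. Lncppara, around let-7b and let-7c-2, was too low to be tested. Hosts were found by the coordinates of the hairpins. A host RNA's level is not the level of its let-7, and no mature let-7 was measured.

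**Figure D4:**
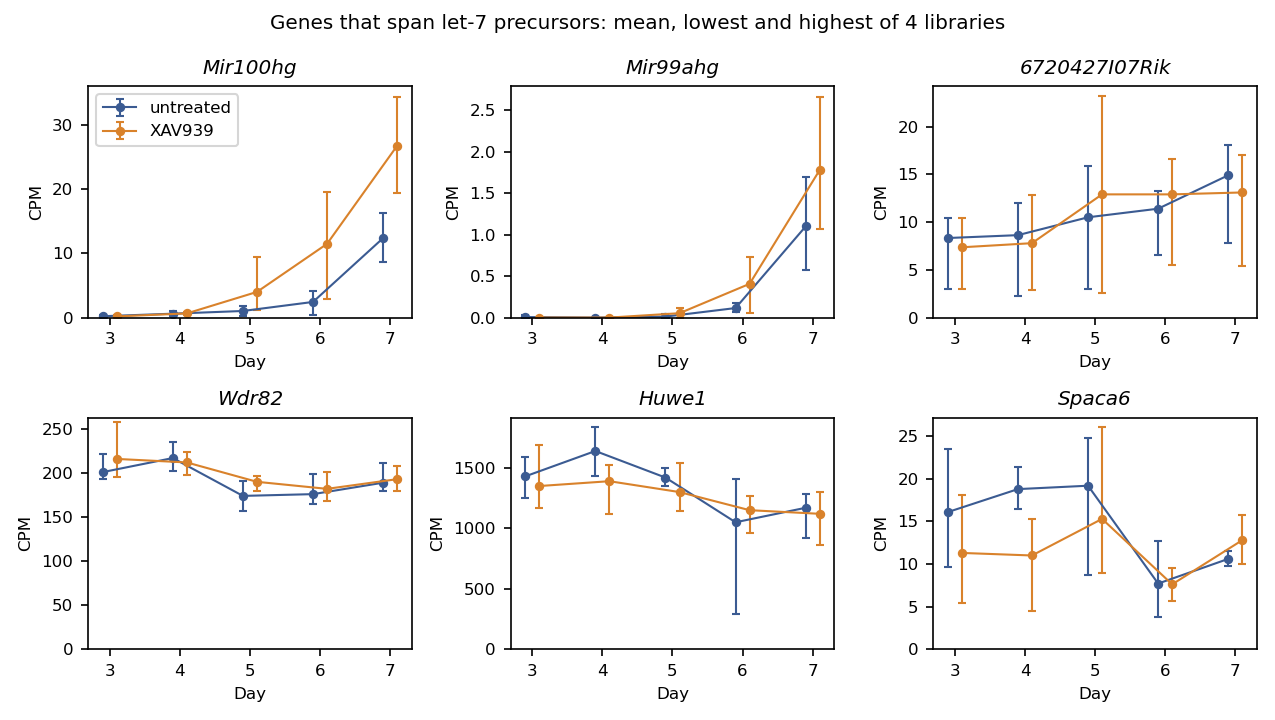
CPM (y axes, from 0) by day (x axes) of 6 genes that span let-7 family precursors, as means of 4 libraries with bars from the lowest to the highest, untreated in blue and XAV939 in orange. Mir100hg and Mir99ahg rise from near 0 to 26.8 and 1.78 CPM with XAV939 at day 7, and the lowest untreated day 6 library of Huwe1 is at 292 CPM.

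The machinery that makes and destroys let-7 went both ways. Of 23 tested genes of microRNA processing, 9 rose and 2 fell between days 3 and 7 in the untreated arm, where 34.7% of all genes rose and 32.6% fell (median log2 fold change 0.04, against 0.03 over all genes). With XAV939, 8 rose and 1 fell, where 36.8% of all genes rose and 34.1% fell (median 0.06, against 0.04). The same all-gene shares are the background for the lists that follow. Ago4, an Argonaute, went from 0.865 ± 0.176 to 3.25 ± 0.683 CPM untreated (1.91, edgeR adjusted p = 4.32e-08). Prkra, a Dicer partner, went from 18.1 ± 1.97 to 63.8 ± 3.87 CPM (1.82, adjusted p = 4.4e-12). The enzymes that act with Lin28 were named for that role and after their values were seen: Tut4 rose from 110 ± 12.6 to 211 ± 22 CPM (0.95, adjusted p = 0.00072), Tut7 from 62.3 ± 7.66 to 86.5 ± 3.93 (0.47, adjusted p = 0.00859) and Dis3l2 from 28 ± 1.13 to 37 ± 1.49 (0.40, adjusted p = 0.000348). XAV939 against untreated called 0 of the 23 at days 5 and 6, where 2.34% and 4.34% of all genes were called. With the replicate block it called Ago4 higher at days 6 (0.74, adjusted p = 0.00534) and 7 (0.66, adjusted p = 0.0345).

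Among 26 other genes known as let-7 targets, 13 rose and 5 fell in the untreated arm (median 0.53, all genes 34.7% and 32.6%) and 15 rose and 6 fell with XAV939 (median 0.64, all genes 36.8% and 34.1%). Ccnd2, a cyclin of the G1 phase, went from 5.03 ± 2.17 to 1140 ± 311 CPM untreated (7.82, edgeR adjusted p = 5.59e-14). Fignl2 went from 13.1 ± 2.81 to 184 ± 22.9 CPM (3.81, adjusted p = 1.89e-13). One gene of the list differed between arms at day 5: Stard13, at 5.19 ± 0.521 CPM with XAV939 and 10.3 ± 3.29 without (-0.99, adjusted p = 0.00902). Without untreated day 5 library 1 its adjusted p was 0.0885, without XAV939 day 5 library 4 it was 0.0578, and with only the day 5 libraries fitted it was 0.0933. With the replicate block within each day, 3 of the 26 were lower at day 5 (1240 of all 16878 genes were called). At day 6, 1 was higher and 1 lower (10.2% of all genes were called). Lrig3 was among those lower at day 5 (-0.58, adjusted p = 0.0014), where it stood at 55 ± 8.79 and 84.8 ± 28.4 CPM, and was the one lower at day 6 (-0.46, adjusted p = 0.00392).

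A list of 9 genes held RNAs known to be bound by Igf2bp proteins and genes of the Igf2 axis, and binding was not measured here. Of these, 6 rose and 2 fell untreated (all genes 34.7% and 32.6%), and 6 rose and 3 fell with XAV939 (all genes 36.8% and 34.1%). Igf2, the growth factor whose RNA gave the family its name, went from 1.89 ± 0.203 to 238 ± 55.5 CPM untreated and from 1.45 ± 0.159 to 99.3 ± 26.4 with XAV939. H19, its imprinted noncoding neighbour, went from 49.2 ± 6.29 to 2770 ± 803 and from 39 ± 6.35 to 1700 ± 416 CPM. At day 6 H19 was lower with XAV939 (518 ± 34 against 1290 ± 786 CPM, -1.32, edgeR adjusted p = 0.0431), a call that rested on single libraries: it became -0.81 (adjusted p = 0.242) without untreated day 6 library 1, and was lost without untreated day 6 library 3 or any one of the XAV939 day 6 libraries (adjusted p from 0.0694 to 0.129). With the replicate block within each day it was -1.15 (adjusted p = 0.0051). Igf2 passed the test of any XAV939 effect (adjusted p = 0.011), and with the block it was called lower at days 6 (-0.81, adjusted p = 0.0389) and 7 (-1.27, adjusted p = 0.0121). The Igf2bp genes themselves were not called in the same comparisons, apart from Igf2bp3 as given above.

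Relatives of the 7 genes went both ways. Of 10 tested, 3 rose and 6 fell untreated (median -0.35, all genes 34.7% and 32.6%) and 3 rose and 5 fell with XAV939 (median -0.37, all genes 36.8% and 34.1%). XAV939 against untreated called 0 of the 10 at days 5 and 6, where 2.34% and 4.34% of all genes were called. With the replicate block Trim2 was called higher at day 5 (0.94, adjusted p = 0.0475, against 0.0704 without it). Ybx2, a Y-box RNA-binding protein of germ cells, fell from 17.3 ± 4.18 to 3.73 ± 0.55 CPM (-2.21, edgeR adjusted p = 6.43e-10), and Trim32, an NHL-domain ubiquitin ligase like Trim71, rose from 21.1 ± 0.637 to 47.1 ± 2.66 (1.16, adjusted p = 5.37e-08). Hmga1 and Hmga1b are near-identical copies and their counts are uncertain. Of 10 genes of body axis timing 6 were tested, and 4 rose and 2 fell in each arm. Hoxb9, a posterior Hox gene, went from 0.459 ± 0.261 to 125 ± 48.1 CPM (8.06, adjusted p = 1.73e-11) and was lower with XAV939 at day 5 (3.78 ± 2.06 against 25 ± 33.4 CPM, -2.72, adjusted p = 0.00723), which became -1.14 (adjusted p = 0.235) without untreated day 5 library 1. With the replicate block 3 of the 6 were lower at day 5, Cdx2 among them (-1.38, adjusted p = 0.0213, against 0.31 without it), and 1 at day 6. Of all 16878 genes, 1240 were called with the block at day 5 and 1727 at day 6.

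**Figure D5:**
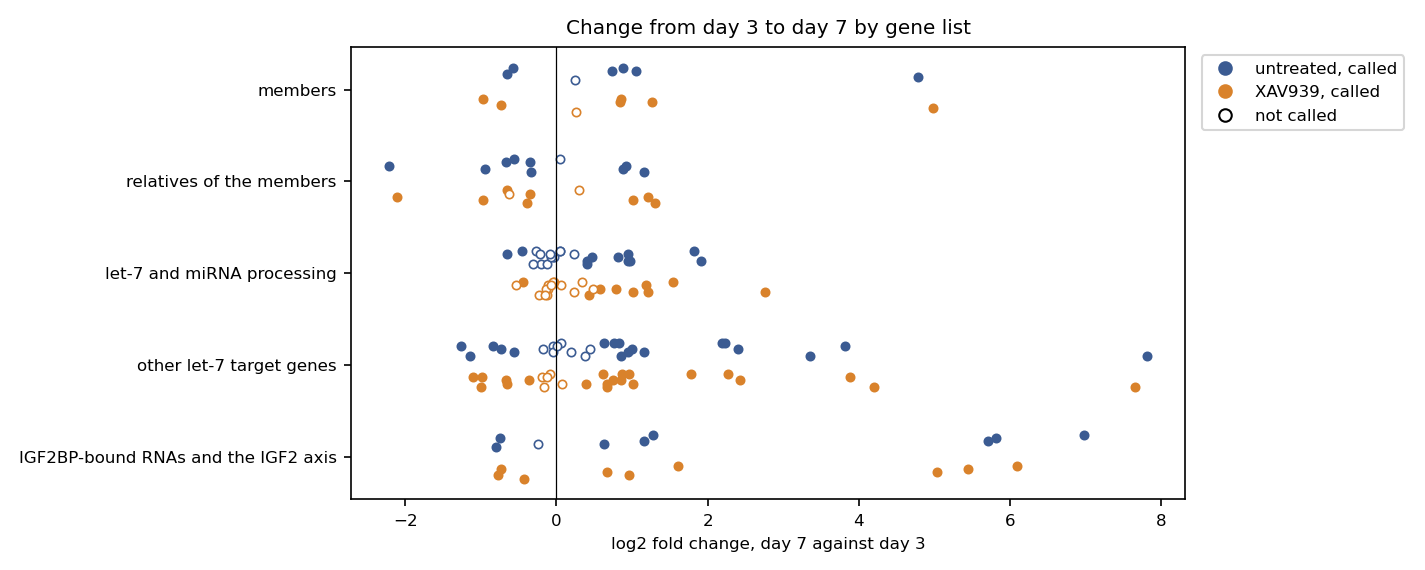
log2 fold change of day 7 against day 3 (x axis) for each tested gene of 5 lists (y axis), untreated in blue and XAV939 in orange, filled where called. The 7 genes (top row) lie between -0.97 and 1.26 apart from Hmga2 at 4.78 and 4.98; among other let-7 targets Ccnd2 lies farthest right.

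Markers of cell types moved over the same days. From day 3 to day 7, 34.7% of all genes rose and 32.6% fell untreated, and 36.8% and 34.1% with XAV939. Of 8 epiblast markers 7 fell in each arm, and their summed level went from 3100 to 3800 CPM at day 3 to 196 to 270 at day 7 untreated, and from 3080 to 3890 to 186 to 253 with XAV939. Of 6 neuronal markers 4 rose untreated and 6 with XAV939, with sums of 61.9 to 179 and 129 to 563 CPM at day 7 (Neurog2 was at 0 counts in the XAV939 day 3 libraries). Of 6 neural progenitor markers 4 rose untreated and 5 with XAV939, and of 6 somitic markers 4 rose in each arm, with sums of 146 to 266 CPM untreated and 98.5 to 209 with XAV939 at day 7. Of 6 endodermal markers (Sox17, Foxa2, Foxa1, Gata6, Cldn6 and Epcam) 4 rose and 2 fell in each arm. Their sum went down, from 513 to 575 CPM to 177 to 293 untreated and from 554 to 640 CPM to 85 to 175 with XAV939. The largest changes of this list were rises, of Gata6 (log2 fold change 6.98 untreated) and Sox17 (6.73), so the sum does not follow them. The sum was highest at day 3 in both arms. Neither it nor a count over this list is read as an amount of endoderm. Of 5 endothelial and blood markers 3 rose and 2 fell, and of 4 glial markers 2 rose. Of 8 genes of stress and RNA quality, 3 fell untreated and 5 with XAV939. Between the arms, 4 of the 6 somitic, 3 of the 6 endodermal and 1 of the 5 endothelial and blood markers were called lower with XAV939 at day 5. At that day 2.34% of all genes were called, and 0 genes when only its libraries were fitted. The somitic sum at day 5 ran from 12.9 to 161 CPM untreated and from 6.61 to 14.9 with XAV939, which overlap. These marker calls were not checked with single libraries left out. At day 6 (4.34% of all genes called), 3 endodermal (Epcam, Cldn6 and Gata6), 2 epiblast, 1 somitic and 1 endothelial or blood marker were lower. At that day 3 of the 6 neuronal and 1 of the 6 neural progenitor markers were higher. With the replicate block within each day, 5 somitic and 5 endodermal markers were lower at day 5, 2 and 4 at day 6, and 3 endodermal at day 7. The fit with this block called 1240 of all 16878 genes at day 5, 1727 at day 6 and 381 at day 7. With it, neuronal markers called higher numbered 1 at day 5, 3 at day 6 and 3 at day 7, neural progenitor markers 1, 2 and 1, and glial markers 1 at day 5. The part of these shifts in the changes of the 7 genes was not tested.

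As a description over the 10 group means of log2 CPM, among 11902 genes of at least 5 CPM in their highest group, the gene most like each of 6 of the 7 was as follows. Hmga2 was most like Klhl22 (Pearson's r 0.9981), Igf2bp2 like Asic2 (0.9926), Igf2bp3 like Wars2 (0.9924), Trim71 like Asxl1 (0.9888), Lin28b like Tardbp (0.9874) and Igf2bp1 like Smad4 (0.92). Among the 7 themselves, Igf2bp3 ran closest to Hmga2 (0.925) and Lin28b (0.923), and Trim71 ran opposite to Igf2bp2 (-0.846) and Hmga2 (-0.842). The 10 means share days and arms, so they are not independent points.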

How the data were processed

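Poly(A) RNA of 40 libraries (4 in each of 10 groups) was sequenced from 300 ng with a stranded TruSeq kit as 81 bp pairs at a target of 36 M reads, per the labels' protocols. The submitters' processing notes name bcl2fastq 2.20.0 and the build mm10. Aligner, counter, annotation and strand setting were "not given in the sources used here". Unnormalised whole-number counts for each gene were deposited by the authors, with library totals of 30197759 to 44086019 (median 35737152).

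edgeR 4.0.16 (limma 3.58.1, R 4.3.3) fitted 1 robust quasi-likelihood model with a mean per group to all 40 libraries, after filterByExpr (minimum count 10, minimum total 15) and TMM scaling. A call needs a p below 0.05 after Benjamini-Hochberg adjustment over 16878 genes. The fitting code was tested on simulated counts. GENCODE M21 (GRCm38) gave loci, lengths and 3′ UTRs, and RefSeq (GRCm38.p6) gave miRNA sequences. The 60 pairs of libraries within groups had a chi-square per gene of at least 10.2, so none was a copy of another.

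Within a day, same-numbered libraries of the arms deviated together (correlation 0.145 to 0.523 in 20 of 20 pairs, each highest for its own number), so a replicate block within each day is given beside results of the 7 genes and the lists that it changes. Between days 3 and 7 the correlations ran from -0.073 to 0.195 and no pairing was assumed. The genes and lists were chosen with earlier results of these data known. Beside the 7 genes, each list is represented by the 2 genes with the smallest p for any XAV939 effect and the 2 with the largest change from day 3 to day 7 untreated, as far as they are described. For likeness, the rule took the genes with the highest correlation with each of the 7; that of Lin28a is not reported here. Alternatives were RLE size factors, DESeq2 1.42.0, no filter, 5 CPM in 4 libraries, a log2 fold change of at least 1, only the libraries compared, replicate blocks, each library left out, the longest transcript, and, added after seeing the data, leaving out the 2 libraries that stood apart, alone and with the block.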

Additional observations from a re-analysis of the deposited data

Results flagged for a closer look

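Over 70 sets of 4 libraries (7 genes in 10 groups), 6 had 1 library whose gap to the next, as a share of the set's range, was above Dixon's 95% critical value. Chance gives about 1 in 20. Lin28b was highest in XAV939 day 4 library 4 at 237 CPM. Trim71 was lowest in untreated day 3 library 3 at 260 CPM. Hmga2 was lowest in XAV939 day 3 library 3 at 9.19 CPM and highest in XAV939 day 7 library 3 at 518 CPM. Igf2bp1 was lowest in XAV939 day 7 library 2 at 327 CPM. Igf2bp2 was highest in XAV939 day 4 library 1 at 267 CPM. None of the 6 lies in the 2 libraries that stood apart over all genes.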

How the results depend on the processing

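The counts of genes called from day 3 to day 7 were 6 of 7 in both arms under every alternative run except an additional fold threshold (log2 fold change of at least 1), which left 2 and 2. That threshold left, in the untreated arm, 1 gene for day 4 against 3, 1 for day 6 against 5 and 0 for day 7 against 6, and with XAV939 2, 1 and 0 for the first 3 steps. With the replicate number as a replicate block in the fit of all libraries, day 5 against 4 untreated went from 1 to 2 (Trim71). By smaller ratios, day 4 against 3 went from 3 to 4 untreated (Igf2bp3) and from 4 to 5 with XAV939 (Igf2bp2), and with XAV939 day 5 against 4 (Igf2bp3) and day 6 against 5 (Igf2bp2) went from 2 to 3. Day 5 against 4 untreated also went to 2 without the 2 libraries that stood apart. Fitting only the libraries compared gave 1 for day 6 against 5 untreated and 1 for day 5 against 4 with XAV939. Without the filter on low counts, day 5 against 4 and day 6 against 5 with XAV939 each had 1. Leaving out each library in turn gave 1 to 2 for both of these. For XAV939 against untreated, the replicate block within each day gave 1 at day 6. With the block and without the 2 libraries it gave 2 at day 5, 1 at day 7, 2 for any effect (Lin28b, Igf2bp3) and 1 for a difference between days (Lin28b). The cause of these shifts was not tested. Over all genes the block within each day called 1240 at day 5 (395 without it), 1727 at day 6 (733), 381 at day 7 (1), 2260 for any effect (979) and 438 for a difference between days (39), whereas fitting only 1 day's libraries called 0 at each day. DESeq2 called 56 at day 4 (edgeR 3), 614 at day 5, 101 at day 7, 1525 for any effect and 240 for a difference between days. Leaving out single libraries gave 83 to 449 at day 5 and 331 to 1169 at day 6. No value of the 7 genes changed direction where it was called. For the 2 tests over all days, fitting only the libraries compared is the same fit. The counts cannot show differences between arms smaller than the intervals given, which come from the fit without a block.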

Other observations

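The 556 tested genes with at least 1 let-7 8-mer in the longest 3′ UTR can be set beside the 14588 with none, as a description. From day 3 to day 7 untreated, 41.5% of the former rose and 25.9% fell (median log2 fold change 0.20), against 33.6% and 33.8% of the latter. With XAV939 the shares with an 8-mer were 44.2% and 28.6%, against 35.3% and 35.5% without. Of the 29 genes with 2 or more 8-mers, 37.9% rose and 34.5% fell in each arm (median -0.04 untreated and -0.03 with XAV939). The sets differ in 3′ UTR length, with medians of 2417.5 and 1122.5 bases, and the part of length in the difference was not tested. Only 3 tested genes held 4 or more 8-mers: Mcf2l (7), Trim6 (5) and Trim71 (4). They were named after their values were seen, and all 3 fell untreated (edgeR log2 fold change -0.48, -2.58 and -0.65, adjusted p = 0.0295, 1.18e-12 and 9.01e-05).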
